A study of Saccharomyces cerevisiae S288C with 9 samples.

Results

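The genes described here are 34 autophagy genes of budding yeast that were looked up by systematic name in the deposited count table of 7127 annotated rows: genes named ATG, with VPS30, VPS34 and VPS15. Not every gene named ATG is among them: ATG26, ATG38, ATG41 and ATG42 were counted apart, in a list of other autophagy genes. The 34 were chosen by function and not by a rule on any measured value, though with earlier results of these data known, and all 34 were found. The study compared a strain with wild-type SET1 (WT) with strains in which 1 serine of Set1 was replaced by alanine (S228A) or by glutamate (S228E). All strains were Saccharomyces cerevisiae S288C, grown to mid-log phase in YPD, a rich medium with glucose, with no further treatment, and each gave 3 libraries of total RNA that the submitters call biological replicates. Set1 is the enzyme that methylates lysine 4 of histone H3. The labels give no mating type, no other marker of the strains and no count of clones, and no starvation was applied.

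Autophagy encloses cytoplasm in a double membrane, the autophagosome, which fuses with the vacuole, where its content is degraded. The Atg1 kinase complex starts the process, a phosphatidylinositol 3-kinase complex and Atg9 vesicles supply signals and membrane, and the ubiquitin-like proteins Atg8 and Atg12 are attached to a lipid and to Atg5 to expand it. In rich medium, yeast uses most of the same proteins for the cytoplasm-to-vacuole targeting (Cvt) pathway, which delivers vacuolar hydrolases, and nutrient kinases keep bulk autophagy low. Transcription of many ATG genes is known to rise on starvation, when repressors such as Ume6 with the deacetylase Rpd3 are relieved.

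Of the 34 genes, 33 had enough counts to be tested. Levels are counts scaled by TMM to library size and given per 1000000 counts (CPM), and tests are edgeR's quasi-likelihood test with Benjamini-Hochberg adjustment over the 6133 rows tested. A gene was called changed where its adjusted p was under 0.05 and its fold change over 1.5, the thresholds of the series' design text, and genes past the adjusted p alone were counted separately. In S228A against WT, 1 autophagy gene of 33 was called, ATG1, which was higher in S228A, beside 12.2% of all genes tested. At the adjusted p alone 9 of 33 passed, beside 35% of all genes: ATG1, ATG29, VPS34, VPS15, ATG9 and ATG5 were higher, beside 15.5%, and ATG32, ATG36 and ATG22 lower in S228A, beside 19.4%. At an unadjusted p under 0.05 there were 13, beside 44.7%. In S228E against WT edgeR called 0 of 33 and put 0 past the adjusted p, beside 0.0489% of all genes under either rule, and 1 had an unadjusted p under 0.05, beside 5.63%. In S228E against S228A, the direct test between both mutants, 0 of 33 were called in edgeR, DESeq2 or limma-voom, beside 11.1% of all genes in edgeR. There 7 of 33 passed the adjusted p, beside 29.7%, and 11 had an unadjusted p under 0.05, beside 40.5%.

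**Figure D1:**
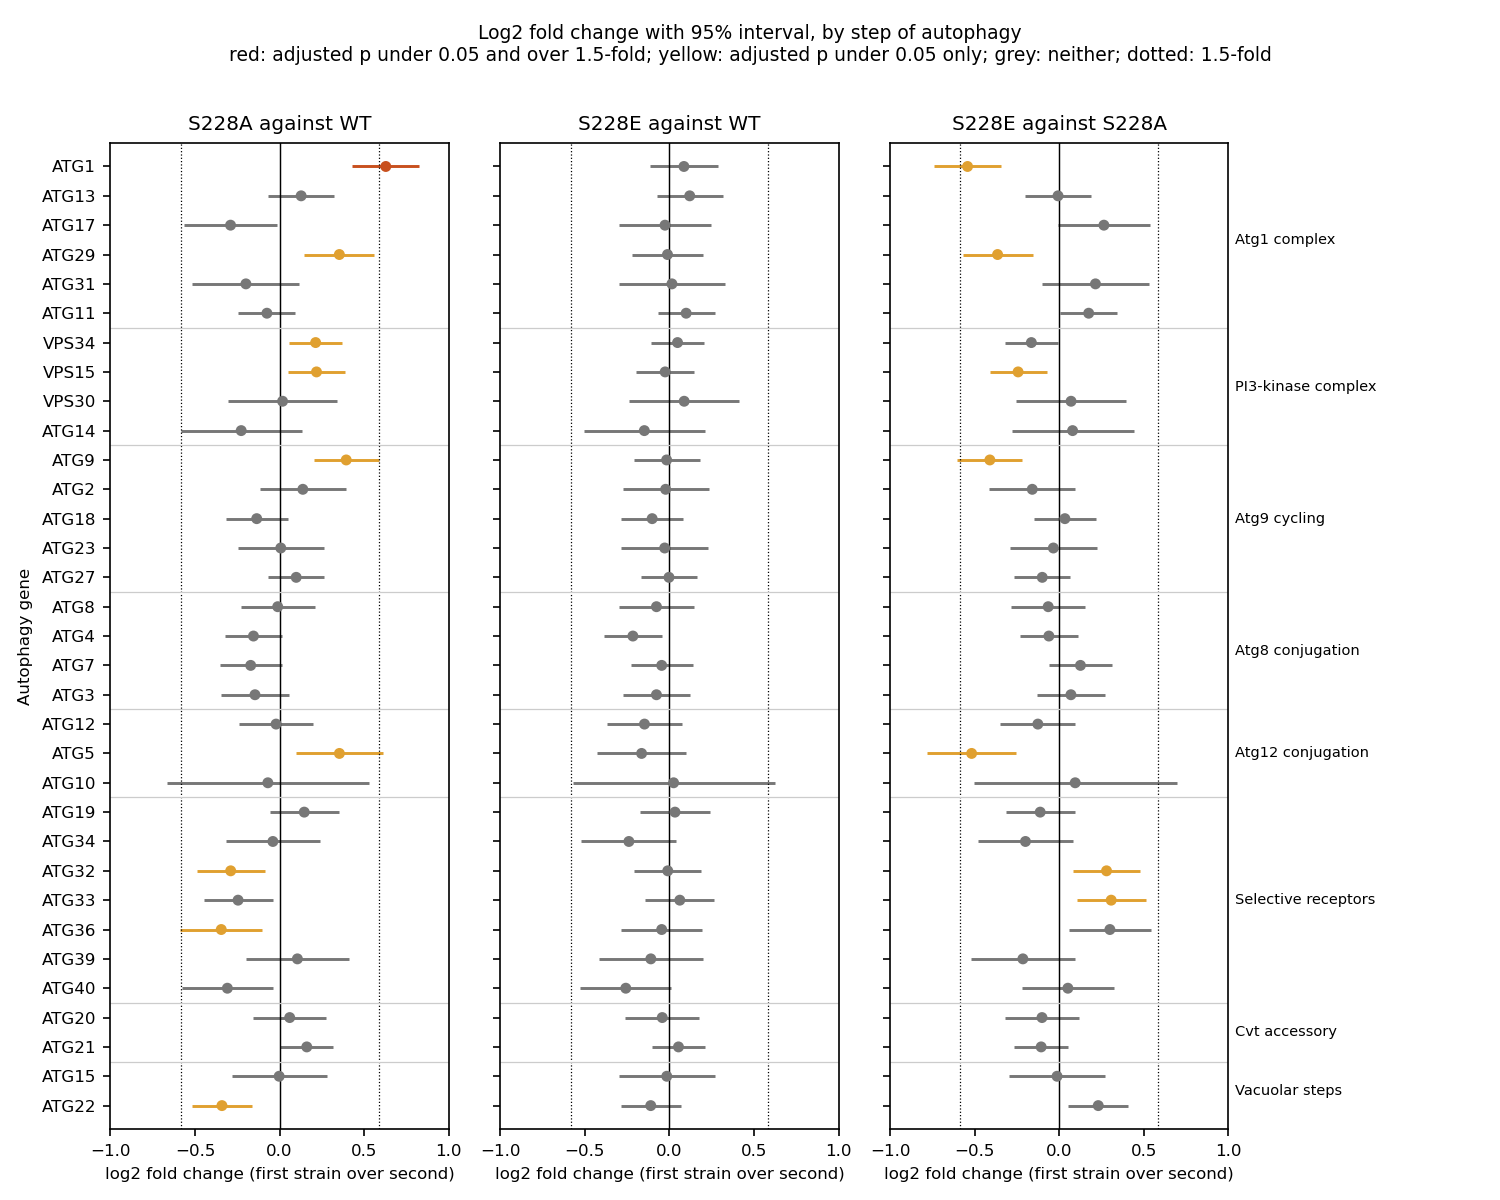
Log2 fold change of the 33 tested autophagy genes (points) with its 95% interval (lines), grouped by step, in each of the 3 comparisons; dotted lines mark 1.5-fold. ATG1 in S228A against WT is the 1 red point, at 0.63, and no point in S228E against WT is coloured.

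The libraries held 14455017 to 19658103 counts. The 3 S228A libraries lay apart from the other 6 on the first principal component of all genes, which held 74.2% of the variance. Transcripts that mark a cells and the response to mating pheromone moved with them, as did part of those that mark alpha cells. Called higher in S228A were 5 of 5 a-cell markers, 2 of 4 alpha-cell markers and 5 of 5 pheromone response markers, and none in S228E. The summed pheromone response markers were 115.6 to 190.9 CPM in WT, 6641 to 7640 CPM in S228A and 157.9 to 174.7 CPM in S228E. The summed a-cell markers were 1349 to 1651, 6030 to 7218 and 1528 to 1649 CPM, and the summed alpha-cell markers 57.8 to 61.0, 137.0 to 207.7 and 56.2 to 61.8 CPM, in the same order, with no marker at 0 in any library. Most of the alpha-cell sum was SAG1, at means of 48.7, 160 and 50.0 CPM in WT, S228A and S228E. STE3, the alpha-cell marker that did not rise, had means of 3.22, 3.04 and 2.50 CPM, and MF(ALPHA)1 rested on 3 to 16 counts a library. The part of these markers in the differences of the autophagy genes was not tested. SET1 itself was at 199.8 ± 6.25, 203 ± 18.1 and 219 ± 15.1 CPM (mean ± SD, n = 3 each), which does not check the labels, since a changed codon can leave the level of an mRNA as it was. In bulk RNA, fewer cells with a transcript and less of it in each cell cannot be told apart.

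The 33 tested genes together took 0.134% to 0.154% of the counts of a library. Their summed level was 1454, 1364 and 1520.2 CPM in the WT libraries, 1506, 1471 and 1427 CPM in S228A and 1380.3, 1419.8 and 1461 CPM in S228E, so the 3 strains overlapped. Compared per length, as CPM per kilobase in WT, the median of the 33 tested genes was 25.6 beside 40.4 for all genes tested, and 7 of the 33 lay above that. The highest were ATG33 with 147, 141 and 157, needed in the uptake of mitochondria, and ATG27 with 139, 145 and 121, a membrane protein of Atg9 vesicles, whose values overlapped. ATG8 followed with 97.5, 84.8 and 95.7 CPM per kilobase and did not overlap with ATG27 above it or with ATG19 below it. At the other end ATG9 had 11.3, 9.76 and 12.1, ATG11 had 8.14, 8.57 and 8.48 and ATG10, the E2-like enzyme of Atg12, had 3.75, 5.12 and 5.79 CPM per kilobase. ATG11 was below all 3 values of ATG9, and ATG10 below all 3 of ATG11. Of 33 neighbouring pairs in the whole order, which includes the untested ATG16, 10 did not overlap. Among these is the pair of ATG10 and ATG16, although no level of ATG16 can be given. In most of the middle of the order, from ATG3 at a mean of 38.4 to ATG9 at 11.1 CPM per kilobase, neighbours overlapped, with breaks below ATG40 and below VPS34.

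**Figure D2:**
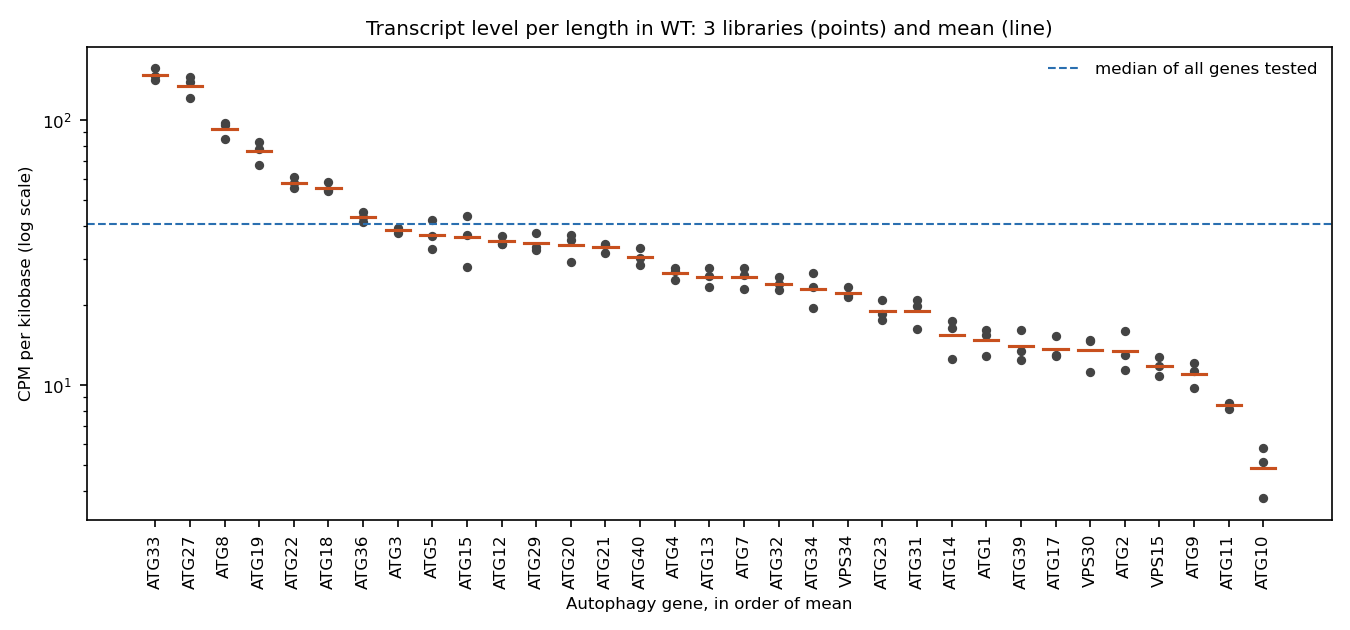
CPM per kilobase of the 33 tested autophagy genes in the 3 WT libraries (points, log scale) with their mean (line), in order of the mean; the dashed line is the median of all genes tested. ATG33, ATG27 and ATG8 lead at means of 148, 135 and 92.7, and ATG10 is lowest at 4.89.

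ATG16, whose product joins Atg12 and Atg5 into the complex that lipidates Atg8, was not tested. Its row held 0, 0 and 2 counts in WT, 1, 2 and 1 in S228A and 0, 2 and 2 in S228E. The gene (YMR159C, chromosome XIII, 574476 to 574928, minus strand, sacCer3) shares 316 of its bases with YMR158W-B on the other strand, and 137 are its own. The counting command in the file headers sets no option for reads that meet 2 rows, so reads in the shared stretch entered neither row. No level of ATG16 can be given from this table.

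In the Atg1 complex, which starts autophagy, the transcript of the kinase itself was higher in S228A, together with 1 of its scaffold genes. ATG1 (YGL180W, chromosome VII, 160065 to 162758, plus strand) encodes the serine/threonine kinase on which autophagosome formation depends. It was at 41.8, 34.7 and 43.5 CPM in the WT libraries, 62.6, 65.9 and 56.9 CPM in S228A and 41.3, 44.1 and 41.9 CPM in S228E. All 3 S228A libraries were above every WT and S228E library, and WT and S228E overlapped. The log2 fold change in S228A against WT was 0.63 ± 0.09 (SE; 95% interval 0.43 to 0.83; 1.55-fold higher; edgeR adjusted p = 0.000191). Leaving out WT replicate 2, the lowest WT library, ended the call, at a log2 change of 0.54 (1.45-fold; edgeR adjusted p = 0.000443). Between the mutants ATG1 was 1.46-fold lower in S228E than in S228A and so short of a call, at a log2 change of -0.54 ± 0.09 (interval -0.74 to -0.34; edgeR adjusted p = 0.000654). Without S228A replicate 3 that value was -0.60, past 1.5-fold (edgeR adjusted p = 0.000825). Neither neighbour of ATG1 had a positive fold change: GTS1, 968 bases upstream on the same strand, had a log2 value of -0.15 (edgeR adjusted p = 0.125), and TOS3, 650 bases downstream on the other strand, had -0.39 (edgeR adjusted p = 0.0470). TOS3 did not pass without WT replicate 1 or 2, any 1 of the S228A libraries or S228E replicate 2, where its highest edgeR adjusted p was 0.163, nor with RLE scaling (0.0543), limma-voom (0.0527) or only the 2 strains compared (0.0578). The 300 bases before the start codon of ATG1 (chrVII:159765-160064, plus strand, RefSeq R64 genome) are shown because ATG1 was the 1 member called, and none of the motifs searched for (given with the promoter counts) was in them, so no base is in capitals.
ATG1: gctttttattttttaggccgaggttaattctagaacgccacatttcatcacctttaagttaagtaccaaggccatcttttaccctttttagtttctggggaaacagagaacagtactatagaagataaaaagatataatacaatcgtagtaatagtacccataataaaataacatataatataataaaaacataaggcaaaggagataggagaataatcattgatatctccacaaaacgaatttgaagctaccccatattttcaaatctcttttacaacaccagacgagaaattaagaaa

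No other gene of the Atg1 complex was called. ATG29 (YPL166W, chromosome XVI, 237338 to 237979), a subunit of the Atg17 scaffold that serves bulk autophagy, was at 21.3, 20.8 and 24.1 CPM in WT, 29.8, 28.9 and 25.9 in S228A and 21.95, 22.4 and 21.4 CPM in S228E. Its S228A libraries were above all others, and WT and S228E overlapped. It rose in S228A against WT, at a log2 change of 0.35 ± 0.10 (SE; 1.28-fold; edgeR adjusted p = 0.0121; 0.0529 without WT replicate 1). It was lower in S228E than in S228A, at -0.36 ± 0.10 (edgeR adjusted p = 0.0117; 0.0525 without S228A replicate 1). The end of ATG29 shares 24 bases with the end of SET6 on the other strand, and SET6 rose too, at a log2 change of 0.37 ± 0.08 (SE; edgeR adjusted p = 0.00287). Counts were made without strand, so transcripts that run past either end cannot be told apart. ATG17, the scaffold that holds the complex, was at 16.3, 16.1 and 19.2 CPM in WT, 15.8, 14.2 and 12.3 in S228A and 15.9, 16.6 and 18.3 CPM in S228E. Its S228A libraries were all below WT, but the log2 change of -0.29 ± 0.13 did not pass (edgeR adjusted p = 0.0923). ATG13, the regulatory subunit that nutrient kinases phosphorylate, had 0.13 ± 0.09, ATG31, which bridges Atg17 and Atg29, had -0.20 ± 0.15, and ATG11, the scaffold of the selective pathways, had -0.08 ± 0.08, with edgeR adjusted p values of 0.303, 0.320 and 0.492.

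**Figure D3:**
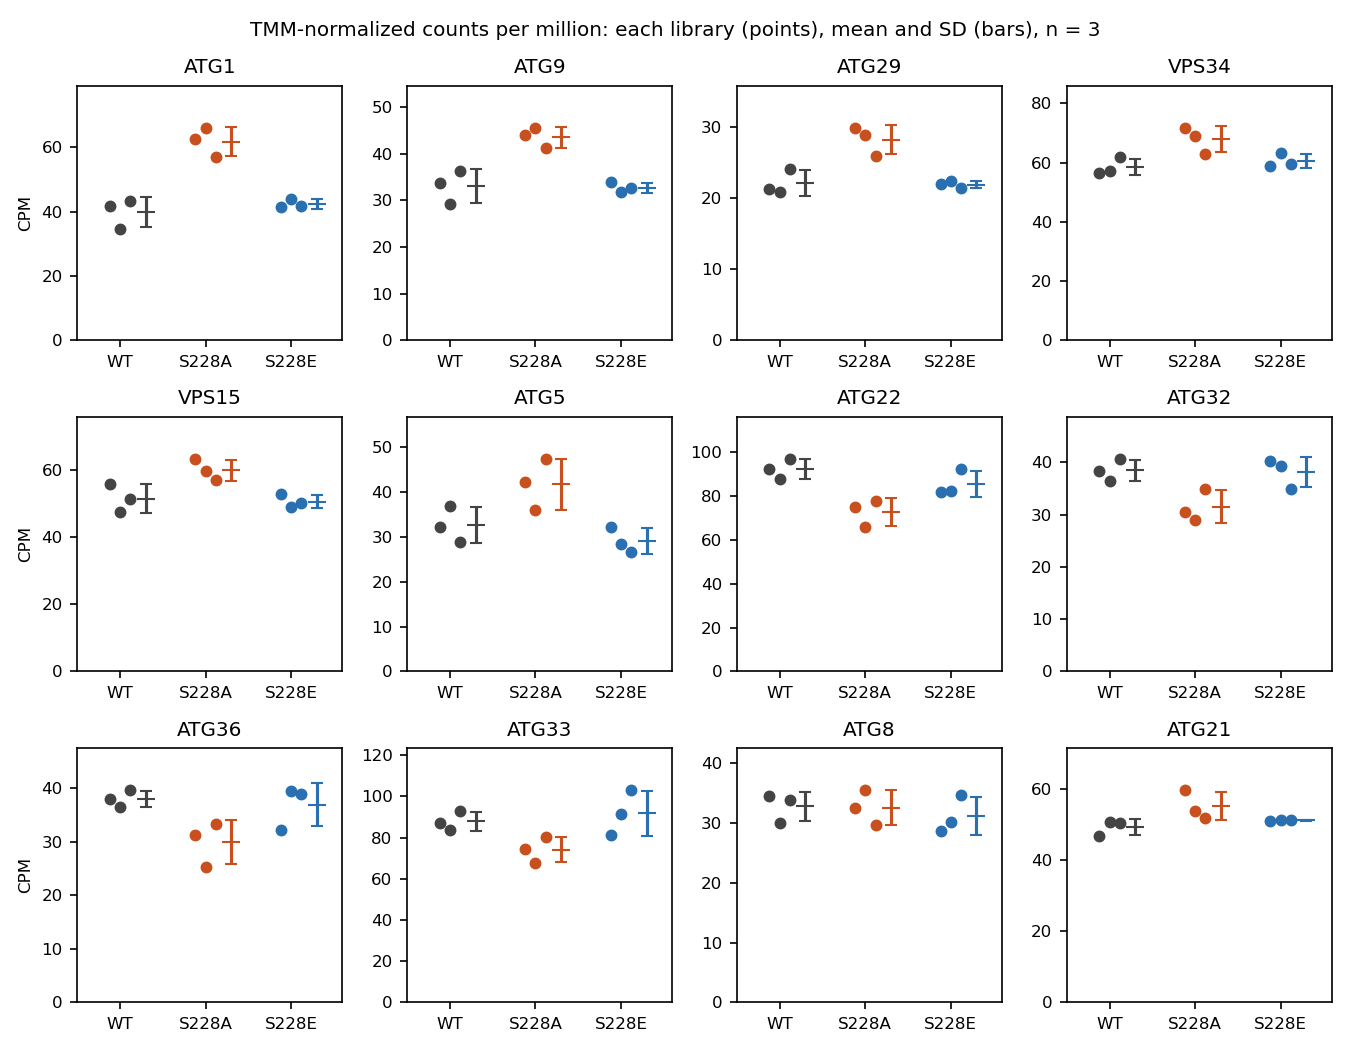
CPM of 12 autophagy genes in each library (points), with mean and SD (bars) of the 3 libraries of each strain. ATG1, ATG9 and ATG29 are higher in all S228A libraries than in all others, while for ATG8 the 3 strains overlap, between 28.7 and 35.5 CPM.

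The phosphatidylinositol 3-kinase complex makes the lipid that recruits later Atg proteins. Its lipid kinase and the partner of that kinase rose in S228A, both by 1.16-fold, while the other 2 subunits grouped here, VPS30 and ATG14, did not pass. ATG38 is not in this group and was counted with the other autophagy genes. Its S228A libraries, at 19.5, 21.8 and 19.2 CPM, were above all WT and S228E libraries, but ATG38 did not pass against WT. VPS34 (YLR240W, chromosome XII, 617533 to 620160), the lipid kinase, was at 56.5, 57.3 and 61.7 CPM in WT, 71.5, 68.95 and 63.01 in S228A and 58.9, 63.2 and 59.4 CPM in S228E. The S228A libraries were above all WT libraries, but the lowest of them lay within the range of S228E. VPS15 (YBR097W, chromosome II, 436951 to 441315), the protein kinase that activates Vps34, was at 55.9, 47.4 and 51.4 CPM in WT, 63.2, 59.8 and 57.01 in S228A and 52.9, 48.9 and 50.2 CPM in S228E, and its S228A libraries were above all others. The log2 fold changes in S228A against WT were 0.21 ± 0.07 for VPS34 (1.16-fold; edgeR adjusted p = 0.0379) and 0.22 ± 0.08 for VPS15 (1.16-fold; edgeR adjusted p = 0.0451). VPS34 lost its adjusted p without WT replicate 1 (0.135), WT replicate 2 (0.0865), S228A replicate 1 (0.133) or S228A replicate 2 (0.0649), all from edgeR, and also where only the 2 strains compared were fitted (0.0636). VPS15 lost it without WT replicate 2 (0.145), WT replicate 3 (0.0691), S228A replicate 1 (0.147), S228A replicate 2 (0.0600), S228E replicate 2 (0.0512) or S228E replicate 3 (0.0534), and where only the 2 strains compared were fitted (0.0688). In S228E against S228A, VPS15 was lower, at a log2 change of -0.24 ± 0.08 (edgeR adjusted p = 0.0320), which did not hold without S228A replicate 1 (0.122), S228E replicate 2 (0.0975) or S228E replicate 3 (0.0768), and VPS34 had -0.17 ± 0.07 (edgeR adjusted p = 0.108; 0.0493 without S228A replicate 3). VPS30, the yeast Beclin, and ATG14, which directs the complex to autophagy, had log2 fold changes of 0.02 ± 0.15 and -0.23 ± 0.16 in S228A against WT, with edgeR adjusted p values of 0.942 and 0.315.

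Among the genes of Atg9 cycling, ATG9 alone passed the adjusted p. ATG9 (YDL149W, chromosome IV, 184925 to 187918, plus strand) encodes the membrane protein, a lipid scramblase, whose vesicles seed the autophagosome. It was at 33.8, 29.2 and 36.3 CPM in WT, 44.01, 45.5 and 41.1 in S228A and 33.9, 31.7 and 32.7 CPM in S228E. The S228A libraries were above all others, with no overlap, and WT and S228E overlapped. ATG9 rose in S228A against WT, at a log2 change of 0.39 ± 0.09 (SE; interval 0.20 to 0.59; 1.31-fold; edgeR adjusted p = 0.00437), and it was lower in S228E than in S228A, at -0.41 ± 0.09 (1.33-fold; edgeR adjusted p = 0.00390). Its promoter is shown beside that of ATG1 because these were the 2 members with the smallest p in S228A against WT. The capitals in the 300 bases before the start codon (chrIV:184625-184924, plus strand, RefSeq R64 genome) mark AGGGG, the stress response element bound by Msn2 and Msn4, at 122 to 118 bases before the start, and GATAAG, the core bound by the GATA factors Gln3 and Gat1, at 56 to 51 bases.
ATG9: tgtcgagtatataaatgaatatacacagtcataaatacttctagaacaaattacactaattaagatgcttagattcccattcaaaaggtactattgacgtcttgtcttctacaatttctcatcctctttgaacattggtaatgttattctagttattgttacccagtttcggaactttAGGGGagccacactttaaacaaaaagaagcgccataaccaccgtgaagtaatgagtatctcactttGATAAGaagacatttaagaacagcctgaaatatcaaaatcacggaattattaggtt

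ATG2, the lipid transfer protein at the membrane edge, had 0.14 ± 0.12 on the log2 scale in S228A against WT, and its partner ATG18, which binds the lipid made by Vps34, had -0.14 ± 0.08. ATG23 and ATG27, which carry Atg9 to the assembly site, had 0.01 ± 0.12 and 0.10 ± 0.08. None of these 4 passed (edgeR adjusted p from 0.240 to 0.972), although ATG2 reached 0.0423 in edgeR without WT replicate 3. ATG27 was at 113, 119 and 98.6 CPM in WT, 119, 116 and 119 in S228A and 111, 106 and 112 CPM in S228E, and WT covered the range of S228E.

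Of the Atg8 conjugation genes, 0 of 4 passed the adjusted p in any comparison, in edgeR, DESeq2 or limma-voom, and 1 had an unadjusted p under 0.05 in edgeR, ATG4 in S228E against WT. ATG8 (YBL078C, chromosome II, 80378 to 80731, minus strand), which encodes the ubiquitin-like protein joined to phosphatidylethanolamine, is the ATG gene best known for its rise on starvation. It was at 34.5, 30.03 and 33.9 CPM in WT, 32.5, 35.5 and 29.6 in S228A and 28.7, 30.2 and 34.7 CPM in S228E. The 3 strains overlapped. Its log2 fold change was -0.01 ± 0.10 in S228A (interval -0.23 to 0.21; edgeR adjusted p = 0.944) and -0.08 ± 0.10 in S228E (interval -0.30 to 0.14; edgeR adjusted p = 0.922), so both intervals lay within 1.5-fold. Its promoter is shown because it holds the Ume6 site through which ATG8 is known to be repressed in rich medium. In the 300 bases before the start codon (chrII:80732-81031, minus strand, RefSeq R64 genome), read on the strand of the gene, the capitals mark GAGTCA, which is the Gcn4 core TGACTC on the other strand, at 230 to 225 bases before the start. They also mark 2 overlapping copies of the URS1 core GGCGGC bound by Ume6, at 133 to 128 and 130 to 125 bases, AGGGG at 91 to 87 and 68 to 64 bases, and GATAAG at 60 to 55 bases.
ATG8: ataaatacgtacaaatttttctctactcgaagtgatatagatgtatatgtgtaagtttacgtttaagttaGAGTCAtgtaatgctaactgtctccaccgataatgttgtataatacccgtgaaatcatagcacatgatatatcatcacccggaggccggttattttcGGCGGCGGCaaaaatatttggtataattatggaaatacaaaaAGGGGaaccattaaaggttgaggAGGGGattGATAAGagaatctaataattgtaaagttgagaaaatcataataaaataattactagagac

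The enzymes of the same step showed no called change either. ATG7, the E1-like enzyme of both conjugation systems, had the smallest p of the step in S228A, at 49.1, 43.8 and 52.3 CPM in WT, 45.4, 43.5 and 40.05 in S228A and 45.6, 49.8 and 45.2 CPM in S228E. All 3 strains overlapped, and the log2 fold change was -0.17 ± 0.08 (edgeR adjusted p = 0.138). The next gene downstream of ATG7 on the same strand, SPC97 of the spindle pole body, starts 729 bases after its end and fell in S228A, at a log2 change of -2.33 (edgeR adjusted p = 9.00e-08). ATG4, the protease that processes Atg8, was at 41.1, 37.1 and 40.05 CPM in WT, 33.96, 37.8 and 34.5 in S228A and 35.2, 32.3 and 34.3 CPM in S228E. Its S228E libraries were all below WT, but its log2 fold change of -0.22 ± 0.08 did not pass (edgeR adjusted p = 0.761). ATG3, the E2-like enzyme that joins Atg8 to lipid, had a log2 change of -0.15 ± 0.09 in S228A against WT (edgeR adjusted p = 0.247).

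In the Atg12 system, ATG5 passed the adjusted p and the genes of the attached protein and its enzyme did not. ATG5 (YPL149W, chromosome XVI, 271310 to 272194), the protein to which Atg12 is joined, was at 32.2, 37.01 and 28.9 CPM in WT, 42.2, 35.9 and 47.3 in S228A and 32.3, 28.4 and 26.6 CPM in S228E. The lowest S228A library lay below the highest WT library, so those groups overlapped, whereas every S228A library was above every S228E library. The log2 fold change was 0.35 ± 0.12 in S228A against WT (1.28-fold; edgeR adjusted p = 0.0364). It did not pass without WT replicate 1 (0.1004), WT replicate 3 (0.104), S228A replicate 1 (0.0828) or S228A replicate 3 (0.140), all edgeR adjusted p. ATG5 was 1.43-fold lower in S228E than in S228A, short of a call, at a log2 change of -0.52 ± 0.12 (edgeR adjusted p = 0.00603). It was called there without S228A replicate 2, at -0.63, or S228E replicate 1, at -0.61. ATG12, the ubiquitin-like protein, had -0.02 ± 0.10 in S228A against WT (edgeR adjusted p = 0.898). ATG10 rested on 35 to 57 counts a library, at 1.89, 2.58 and 2.92 CPM in WT, 3.20, 1.81 and 2.04 in S228A and 2.88, 2.03 and 2.57 in S228E, with overlap between the 3 strains. Its log2 fold change in S228A against WT was -0.07 ± 0.28 (edgeR adjusted p = 0.876), with an interval of -0.67 to 0.53 that reaches past 1.5-fold on the lower side.

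Selective receptors tie a cargo to Atg8 and Atg11. The 7 genes grouped under this step, with ATG33 counted for its role in the uptake of mitochondria, did not move as 1 group. The receptors of mitochondria and peroxisomes fell in S228A, short of 1.5-fold. ATG32 (YIL146C, chromosome IX, 74184 to 75773), the receptor of mitochondria, was at 38.3, 36.5 and 40.6 CPM in WT, 30.6, 28.9 and 34.98 in S228A and 40.3, 39.2 and 34.95 CPM in S228E. ATG36 (YJL185C, chromosome X, 82095 to 82976), the receptor of peroxisomes, was at 37.9, 36.5 and 39.6 CPM in WT, 31.3, 25.3 and 33.3 in S228A and 32.2, 39.6 and 38.8 CPM in S228E. In both, every S228A library was below every WT library, while S228E overlapped with both other strains. The log2 fold changes in S228A against WT were -0.29 ± 0.09 for ATG32 (1.22-fold lower; edgeR adjusted p = 0.0280) and -0.35 ± 0.11 for ATG36 (1.27-fold lower; edgeR adjusted p = 0.0292). Without WT replicate 1 these edgeR adjusted p values were 0.0731 and 0.0737, without WT replicate 3 0.0925 and 0.0806, without S228A replicate 1 0.0879 and 0.0501, and without S228A replicate 2 0.110 and 0.116. Fitted with only the 2 strains compared, ATG32 did not pass either (edgeR adjusted p = 0.0536).

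ATG33 (YLR356W, chromosome XII, 840321 to 840914), a mitochondrial membrane protein of the same pathway, was at 87.1, 83.8 and 93.02 CPM in WT, 74.5, 67.9 and 80.2 in S228A and 81.05, 91.7 and 103 CPM in S228E. The S228A libraries were below all others. It did not pass against WT at -0.25 ± 0.09 on the log2 scale (edgeR adjusted p = 0.0599; 0.0402 without S228A replicate 3). It was higher in S228E than in S228A, at 0.31 ± 0.09 (edgeR adjusted p = 0.0264), as was ATG32, at 0.28 ± 0.09 (edgeR adjusted p = 0.0376). Without S228A replicate 1, S228A replicate 2 or S228E replicate 2 neither passed between the mutants, with edgeR adjusted p of 0.0662, 0.105 and 0.0803 for ATG33 and 0.108, 0.139 and 0.130 for ATG32. Without S228E replicate 3 ATG33 had 0.152, and ATG32 had 0.0579 without WT replicate 1 and 0.144 without S228E replicate 1. ATG36 did not pass, at 0.30 ± 0.11 (edgeR adjusted p = 0.0610), and passed without S228A replicate 3 (0.0338) or S228E replicate 1 (0.0323).

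ATG40, a receptor of the endoplasmic reticulum, was at 21.9, 23.3 and 25.3 CPM in WT, 21.9, 15.5 and 19.6 in S228A and 19.9, 19.98 and 18.9 CPM in S228E. WT lay above both mutants in all libraries, by a small gap in S228A, and neither difference passed, at -0.31 ± 0.12 and -0.26 ± 0.12 on the log2 scale (edgeR adjusted p = 0.0704 and 0.849; 0.0294 for the first without S228A replicate 1). ATG19, the Cvt receptor, its paralog ATG34 and ATG39, a receptor of the nuclear envelope, had log2 fold changes of 0.15 ± 0.09, -0.04 ± 0.13 and 0.11 ± 0.14 in S228A against WT (edgeR adjusted p = 0.258, 0.842 and 0.601). ATG34 and ATG19 lie in a row on chromosome XV with 1774 bases between them.

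Of the 2 genes of the vacuolar steps, 1 passed. ATG22 (YCL038C, chromosome III, 54941 to 56527), which exports amino acids released in the vacuole, was at 92.1, 87.8 and 96.7 CPM in WT, 75.1, 65.7 and 77.6 in S228A and 82.00, 82.2 and 92.2 CPM in S228E. Every S228A library was below every WT and S228E library, and WT and S228E overlapped. It fell in S228A against WT, at a log2 change of -0.34 ± 0.08 (interval -0.52 to -0.16; 1.27-fold lower; edgeR adjusted p = 0.00638). Between the mutants it had 0.23 ± 0.08 (edgeR adjusted p = 0.0511), which passed without WT replicate 2 (0.0463) or S228A replicate 3 (0.0374). ATG15, the lipase that opens the inner membrane, had -0.0027 ± 0.13 in S228A against WT (edgeR adjusted p = 0.989). Of the 2 genes that serve mainly the Cvt pathway, ATG21, a lipid-binding protein, was at 46.8, 50.9 and 50.5 CPM in WT, 59.6, 53.98 and 51.9 in S228A and 51.02, 51.4 and 51.3 CPM in S228E. WT was lowest, S228E next and S228A highest, with no overlap, but the log2 change of 0.16 ± 0.07 did not pass (edgeR adjusted p = 0.105). ATG20, a sorting nexin, had 0.06 ± 0.10 (edgeR adjusted p = 0.686).

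Read over the 33 genes, S228A against WT gave 15 positive and 18 negative log2 fold changes, with a median of -0.01, equal at that precision to the -0.01 of all genes tested. The median size without sign was 0.15 on the log2 scale, beside 0.20 for all genes. In 13 of 33 genes (39.4%) the 3 S228A values did not overlap with the 3 WT values, beside 44.5% of all genes: 6 were higher, beside 20.2%, and 7 lower, beside 24.3%. In 28 of 33 the 95% interval lay within 1.5-fold in both directions, the exceptions being ATG1, ATG9, ATG5, ATG10 and ATG36, beside 67.2% of all genes. The 9 genes past the adjusted p were 27.3% of those tested, beside 35% of all genes, and the 1 call was 3.03%, beside 12.2%. With 33 genes these shares rest on few, and whether they differ from those of all genes was not tested. The count of higher genes past the adjusted p was 6 and dropped to 3 without WT replicate 1 or S228A replicate 1, and the count of lower genes was 3 and dropped to 1 without WT replicate 1, WT replicate 3 or S228A replicate 2.

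**Figure D4:**
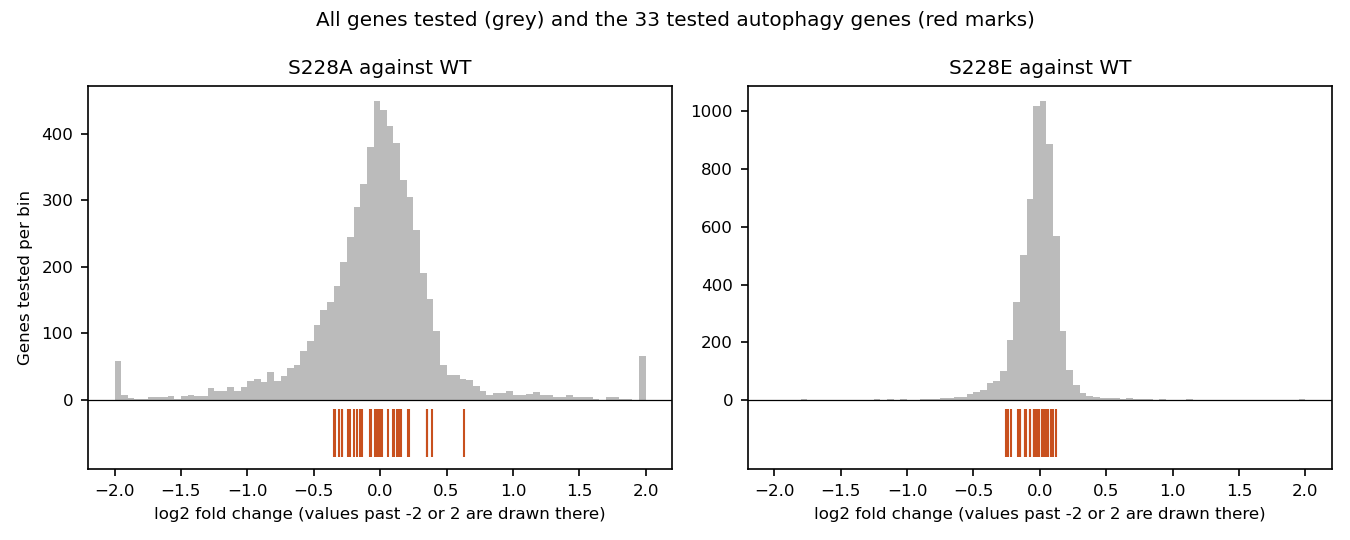
Histogram of the log2 fold changes of all 6133 genes tested (grey; bins of equal width, each panel with its own count axis) with the 33 tested autophagy genes as red marks under the axis. The marks run from -0.35 to 0.63 in S228A and from -0.26 to 0.12 in S228E.

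In S228E against WT the log2 fold changes of the 33 genes ran from -0.26 (ATG40) to 0.12 (ATG13), with a median of -0.03 and a median size of 0.05, beside 0.08 for all genes. In 32 of 33 the 95% interval lay within 1.5-fold, the exception being ATG10, beside 86.2% of all genes. In 6 genes (18.2%, beside 14.4% of all genes) the S228E values did not overlap with WT: ATG21 and ATG11 were higher and ATG40, ATG12, ATG4 and ATG18 lower, and none of these passed. DESeq2 and limma-voom also put 0 autophagy genes past an adjusted p of 0.05 in this comparison. ATG11 was at 28.8, 30.3 and 29.98 CPM in WT, 26.9, 28.5 and 29.1 in S228A and 32.4, 30.8 and 32.1 CPM in S228E. Its S228E libraries were above all others by a small gap, with log2 fold changes of 0.10 ± 0.08 against WT (edgeR adjusted p = 0.868) and 0.17 ± 0.08 against S228A (edgeR adjusted p = 0.112).

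In S228E against S228A, ATG1, ATG29, VPS15, ATG9 and ATG5 were lower and ATG32 and ATG33 higher in S228E at the adjusted p. Of all genes, 13.6% were lower and 16.1% higher by that rule. The 7 were 21.2% of the 33, beside 29.7% of all genes, and the values of both mutants did not overlap in 11 of 33 (33.3%), beside 44.9%. S228E against S228A shares its S228A libraries with S228A against WT, so both sets of values are given side by side and their likeness is not counted. The count of lower genes was 5 and fell to 3 without S228A replicate 1. The count of higher genes was 2 and became 0 without S228A replicate 1, S228A replicate 2 or S228E replicate 2, 1 without WT replicate 1 or S228E replicate 3, and 4 without S228A replicate 3. The count called was 0 and became 1 without S228A replicate 2 or S228E replicate 1, which was ATG5, or S228A replicate 3, which was ATG1.

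The promoters of the members were searched for exact matches on both strands in the 300 bases before the start codon, beside 5979 windows of protein-coding genes. GATAAG was in 12 of the 34 members (35.3%) and in 14.7% of all windows. TGACTC, the core bound by the amino acid starvation factor Gcn4, was in 5 members (14.7%) and 7.76% of windows, and AGGGG in 9 members (26.5%) and 22.2%. The Ume6 core GGCGGC was in ATG8 and ATG19, 5.88% of members beside 5.2% of windows. TGAAACA, the pheromone response element bound by Ste12, was in ATG20 (7.23% of windows), ACGCGT, the element bound by the G1 factor MBF, was in ATG10 (3.5% of windows), and CGCGAAA, the element of SBF, was in no member and in 3.96% of windows. Of the 6 members that passed the adjusted p as higher in S228A, ATG29, VPS34 and ATG9 had a match to at least 1 of these motifs and ATG1, VPS15 and ATG5 had none. Of the 3 that passed as lower, ATG32 had 3 GATAAG and 1 AGGGG, and ATG36 and ATG22 had none. These are matches of letters and not sites shown to be bound, and the windows that hold none may hold other sites.

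**Figure D5:**
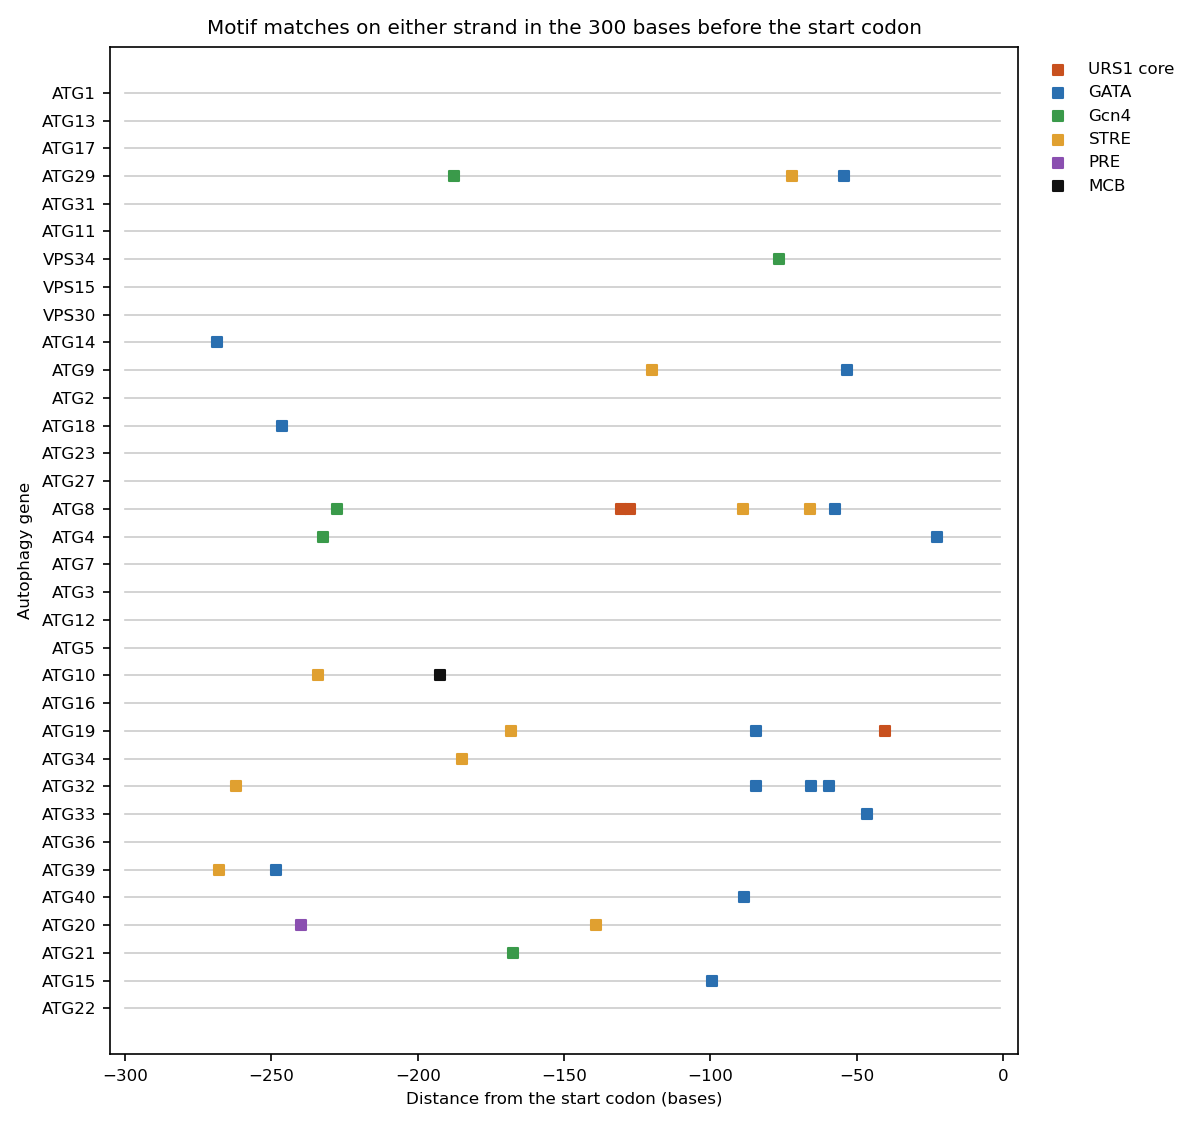
Exact matches of the motifs (squares, coloured by motif) on either strand in the 300 bases before the start codon of each of the 34 autophagy genes (grey lines), against the distance from the start codon in bases. ATG8 holds 2 overlapping URS1 cores at 133 to 125 bases, and ATG1 holds no match.

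Around these genes, 6 further lists of the pathway, 57 genes in all, were counted. None of the 57 was called in any comparison by edgeR, DESeq2 or limma-voom. In S228A against WT 20 of 57 passed edgeR's adjusted p, beside 35% of all genes, with 23 at an unadjusted p under 0.05, beside 44.7%. In S228E against WT 0 passed, with 1 at an unadjusted p under 0.05, beside 0.0489% and 5.63%. In S228E against S228A 16 passed, beside 29.7%, with 21 at an unadjusted p under 0.05, beside 40.5%. The shares past the adjusted p were thus near those of all genes. The counts of each list below are at edgeR's adjusted p in S228A against WT, where 15.5% of all genes were higher and 19.4% lower, and with 3 to 16 genes a list they are descriptions and not results about the lists. From each list the gene with the smallest p in S228A against WT is described here, so these genes were chosen after their values were seen.

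Of 3 genes of Cvt cargo 1 passed as lower in S228A, APE1, the aminopeptidase that the Cvt pathway delivers. It was at 256, 232 and 239 CPM in WT, 188, 176 and 198 in S228A and 216, 245 and 255 CPM in S228E, and its S228A libraries were below all others. Its log2 fold change was -0.37 ± 0.08 in S228A against WT (edgeR adjusted p = 0.00347) and 0.35 ± 0.08 in S228E against S228A (edgeR adjusted p = 0.00585). Of 10 other genes with roles in autophagy or its trafficking, 2 passed as higher, ATG41 and SNX41, and 2 as lower, ATG26 and ATG42. The smallest p was that of ATG42, a vacuolar carboxypeptidase, at 274, 251 and 338 CPM in WT, 209, 193 and 200.4 in S228A and 252, 276 and 299 CPM in S228E. Its S228A libraries were below all others, at a log2 change of -0.52 ± 0.10 (edgeR adjusted p = 0.00219), which passed 1.5-fold without WT replicate 2, at -0.60. Of 4 vacuolar protease genes 3 were lower and 0 higher in S228A. PRC1, carboxypeptidase Y, was at 1449, 1409 and 1477 CPM in WT, 1079, 937 and 1233 in S228A and 1255, 1351 and 1502 CPM in S228E, with S228A below all others, and its log2 fold change was -0.42 ± 0.10 (edgeR adjusted p = 0.00760).

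Of 13 vacuole fusion genes 2 were higher and 0 lower in S228A. PEP5, a subunit of the CORVET and HOPS tethers, was at 59.5, 56.8 and 58.6 CPM in WT, 88.1, 94.01 and 76.95 in S228A and 61.01, 61.1 and 62.3 CPM in S228E. Its S228A libraries were above all others, at a log2 change of 0.57 ± 0.08 (1.48-fold; edgeR adjusted p = 0.000109), which passed 1.5-fold without S228A replicate 3, at 0.64. The systematic names of PEP5 (YMR231W) and FUS2 (YMR232W), a pheromone response marker, follow each other. FUS2 was at 4.45, 5.92 and 4.06 CPM in WT and 200, 392 and 195 CPM in S228A. Whether the changes of PEP5 and FUS2 are linked was not tested. Of 16 genes of the nutrient kinases and their regulators, 4 were higher and 3 lower. SCH9, a kinase that TORC1 activates, was at 199, 174 and 209 CPM in WT, 248, 301 and 277 in S228A and 212, 203 and 210.2 CPM in S228E, with S228A above all others. It rose in S228A against WT, at 0.51 ± 0.09 on the log2 scale (edgeR adjusted p = 0.000787), and was lower in S228E than in S228A, at -0.40 ± 0.09 (edgeR adjusted p = 0.00419).

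Of 11 genes of transcription regulators of ATG genes, 1 was higher and 2 lower in S228A. GAT1, a GATA activator of nitrogen starvation, was at 44.1, 49.9 and 44.1 CPM in WT, 31.2, 32.6 and 34.4 in S228A and 53.4, 43.3 and 41.3 CPM in S228E, and its S228A libraries were below all others. Its log2 fold change was -0.49 ± 0.10 in S228A against WT (edgeR adjusted p = 0.00254) and 0.49 ± 0.10 in S228E against S228A (edgeR adjusted p = 0.00275). UME6, named here since its core is marked in the ATG8 promoter, was at 69.2, 58.6 and 69.8 CPM in WT, 58.05, 61.1 and 51.8 in S228A and 73.4, 73.7 and 75.2 CPM in S228E. WT overlapped with S228A, and S228E lay above both. Against WT it had -0.21 ± 0.09 in S228A (edgeR adjusted p = 0.0754; 0.0184 without WT replicate 2), and S228E was above S228A, at 0.38 ± 0.09 (edgeR adjusted p = 0.00490).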

How the data were processed

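RNA was sequenced in 9 yeast libraries, 3 per strain. What the authors deposited is a single table of raw read counts, in whole numbers and not normalized, with a row for each annotated gene. Per the file headers, the counts came from featureCounts 2.0.1 in paired-end mode over exons grouped by gene, with the Ensembl annotation of sacCer3 and no strand option. Reads that met 2 genes were therefore left out. The same holds for reads placed at several sites only if the aligner marked them as such, which is not known. Bowtie 0.12.2 and sacCer3 appear without a role in the submitters' processing notes, and no aligner of the RNA reads is named in the sources used here. A KAPA kit was used, per the labels' protocols. Their extraction step is one for chromatin, whereas the design text of the series gives a phenol-chloroform extraction of RNA. Column names consist of a letter and a number, which were read as genotype and replicate.

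Counts were filtered with filterByExpr, which kept 6133 of 7127 rows, and scaled by TMM. The test was that of edgeR 4.0.16 (R 4.3.3), in 1 fit of all 9 libraries with a term per strain. The common biological coefficient of variation was 9.61%. No replicate pair matched within counting noise: chi-square per gene was 6.32 to 58.1. The SE is the log2 fold change, without its sign, divided by the root of F, and 95% intervals use the t distribution. CPM per kilobase uses the gene length in the table. The fit was also run on simulated counts with the same spread for every gene, a simpler setting than these data, and no result here rests on that run. Alternatives were RLE scaling, no filter, DESeq2 1.42.0, limma-voom (limma 3.58.1), a replicate block, fits of only the strains compared, and leaving out each library.

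The 34 genes and all lists were chosen with earlier results of these data known. Values in every library are given for genes past an adjusted p of 0.05, the gene of smallest p in each step, the highest and lowest per kilobase, ATG8, and further genes named after their values were seen (ATG17, ATG40 and genes outside the 34). Promoter windows of 300 bases were read from the RefSeq R64 genome, in which 6038 of 6047 matched genes, and 34 of the 34, have the same start and end as in the table.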

Additional observations from a re-analysis of the deposited data

How the results depend on the processing

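No alternative reversed a result past the threshold. Of 16 autophagy results past an adjusted p of 0.05, 6 passed in all 15 alternatives run for each comparison: ATG1, ATG9 and ATG22 in S228A against WT, and ATG1, ATG9 and ATG5 in S228E against S228A. Of 83 others, 6 passed in at least 1 alternative, and 36 changed sign in at least 1 without passing there. The call of ATG1 in S228A against WT held in 14 of 15 alternatives, with folds from 1.45 to 1.63. Leaving out 1 library at a time gave 0 to 1 autophagy genes called in S228A against WT, with 3 to 6 higher and 1 to 4 lower at the adjusted p. In S228E against S228A it gave 0 to 1 called, with 0 to 4 higher and 3 to 6 lower. The number of all genes called in S228E against WT was 3 and became 5 with DESeq2, 1 with the replicate block, 1 with only both strains compared, and 1 to 3 with 1 library left out; the cause was not tested.

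Replicate numbers did not pair the libraries: the deviations of same-numbered libraries correlated from -0.251 to 0.229, with 1 of 9 pairs over 0.1. In both other strains, 1 of 9 libraries correlated best with its own number. With the replicate block, S228A against WT had 4 autophagy genes higher and 4 lower at the adjusted p; VPS34 (0.0619) and ATG5 (0.0644) no longer passed and ATG33 (0.0359) did. With only the 2 strains compared in the fit, VPS34 (0.0636), VPS15 (0.0688) and ATG32 (0.0536) no longer passed in S228A against WT. In S228E against S228A, ATG32 (0.0565) no longer passed with the block and ATG22 (0.0300) did. The order of levels per kilobase in WT kept ATG33, ATG27 and ATG8 at the top in all 5 alternatives run. At the bottom it kept ATG11, ATG10 and the untested ATG16. Depth limits ATG10. ATG16, with 137 bases of its own and 0 to 2 counts a library, is left without a level.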
